A study of Mus musculus with 6 samples.

Results

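Transcripts of 9 genes of the mitochondrial apoptosis pathway, which sets how long a platelet circulates, were examined in mouse platelet RNA. The genes were chosen by name: the pro-survival genes Bcl2l1, Mcl1 and Bcl2, the pore-forming genes Bax and Bak1, the BH3-only genes Bid and Bcl2l11, and Cycs and Casp9, which act after the mitochondrial outer membrane has opened. All 9 were found among the 14975 genes listed, and 5 of them passed a filter of a mean of at least 1 FPKM (reads scaled by the length of the gene and the size of the library), as did 4412 genes in all. Platelets came from 3 control and 3 pre-AML libraries, here numbered by their titles. Their titles and genotype labels read WT and AML on a C57BL/6 background, without a time after transplantation. The study names the RNA-seq mice control and pre-AML, by which it means irradiated recipients of normal bone marrow cells and, 1 week after transplantation, irradiated recipients of leukemic cells. The latter arose from hematopoietic stem and progenitor cells transduced with a retrovirus that carries the MLL-AF9 fusion and GFP, and the methods do not say whether the RNA-seq mice were primary or secondary recipients. Recipients were female C57BL/6 or CD45.1 mice of 8 to 12 weeks. The sources used here do not say which platelets came from donor and which from remaining host megakaryocytes. The design text of the series mentions 2 replicates per group and pools of 3 to 4 mice, whereas the study states 3 independent mice. The p-values therefore measure the spread between these libraries only.

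In the intrinsic apoptosis pathway, BAX and BAK open the outer membrane of mitochondria, and pro-survival proteins such as BCL-XL (the product of Bcl2l1), MCL1 and BCL2 hold them in check by binding them or the BH3-only proteins that activate them. Released cytochrome c (Cycs) then assembles with APAF1 and caspase 9 into the apoptosome, which activates the executioner caspases. Platelets lack a nucleus, and their lifespan in the blood is known to depend on the balance of BCL-XL and BAK, with a smaller part for BAX.

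The 7 members of the BCL2 family share a short BH3 helix, through which family members bind each other. In the longest coding sequence of each, the amino acid pattern of a leucine, any 3 residues, a glycine and an aspartate, which marks this helix, occurred in 7 of 7 genes and once in each, while 13.3% of 21562 protein-coding genes held it. The coding bases are shown because members of opposite function share this pattern of residues. Capitals mark the 18 bases of the pattern, with 12 bases on either side, read 5′ to 3′ on the coding strand from GENCODE release M21 on GRCm38, and all lie within a coding exon.
Bcl2l1, chr2:152829706-152829723, minus strand, exon 2 of 3: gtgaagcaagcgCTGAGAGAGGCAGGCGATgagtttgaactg
Mcl1, chr3:95659436-95659453, plus strand, exon 1 of 3: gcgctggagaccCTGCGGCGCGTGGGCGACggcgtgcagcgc
Bcl2, chr1:106712584-106712601, minus strand, exon 1 of 2: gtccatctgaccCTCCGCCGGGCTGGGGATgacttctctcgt
Bax, chr7:45466006-45466023, minus strand, exon 3 of 6: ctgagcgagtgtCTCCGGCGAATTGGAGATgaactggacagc
Bak1, chr17:27022540-27022557, minus strand, exon 4 of 6: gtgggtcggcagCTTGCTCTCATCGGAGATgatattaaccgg
Bid, chr6:120897298-120897315, minus strand, exon 4 of 6: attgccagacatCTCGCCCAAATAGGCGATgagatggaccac
Bcl2l11, chr2:128147150-128147167, plus strand, exon 3 of 4: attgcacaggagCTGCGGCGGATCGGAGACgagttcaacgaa
Between 7 (Bak1) and 11 (Bcl2) of the 18 capital bases were the same as in Bcl2l1.

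Library depth and purity were checked first. Reads recovered from the FPKM values numbered between 11936175 and 17779300 per library, the most in pre-AML 3, which stood apart from the other 5 libraries on the first principal component (41.9, against -12.7 to -2.12 for the others). The 12 platelet markers summed to between 90548 and 114502 FPKM in control platelets and to 91582, 92969 and 61970 FPKM in pre-AML 1 to pre-AML 3, led by Pf4 and Ppbp. However, all genes together summed to only 376148 FPKM in pre-AML 3, against 508605 to 541784 FPKM in the other libraries. The lower platelet sum of pre-AML 3 is therefore not a measure of lost platelet RNA. The 8 listed B cell markers, led by Cd74 and Cd79a, summed to 1.73 to 1.92 FPKM in control platelets and to 1.03, 19.8 and 228 FPKM in pre-AML 1 to pre-AML 3. Monocyte and macrophage markers summed to 4664 to 5317 FPKM in control and 4872 to 5243 FPKM in pre-AML platelets, nearly all of it Lyz2 and Fcer1g. Without both, the other 10 markers of the list summed to 0.296 to 0.934 FPKM in control platelets and to 5.23, 7.65 and 283 FPKM in pre-AML 1 to pre-AML 3, and 10 of 10 were highest in pre-AML 3. Cd14 and Ccr2 were at 0 in all controls, as were Pax5 among the B cell markers and Cd3g and Ncr1 among the T and NK cell markers. The T and NK cell list, led by Nkg7 and Gzma, summed to 19.1 to 29.0 FPKM in control and 33.7 to 38.4 FPKM in pre-AML platelets. Most of it was Nkg7, with 18.9 to 28.2 FPKM in control and 22.6 to 27.9 FPKM in pre-AML platelets. Gzma had at most 0.353 FPKM in control platelets and 7.25, 4.61 and 8.90 FPKM in pre-AML 1 to pre-AML 3, so its rise was not confined to pre-AML 3. The neutrophil list (S100a8, Csf3r) summed to at most 3.49 FPKM in any library, the erythroid list (Hba-a1, Hbb-bt) was between 2816 and 3582 FPKM, and the pan-leukocyte list (Laptm5, Cd53) between 779 and 905 FPKM. Laptm5 alone had 729 to 866 FPKM, so that sum hides the other genes. Ptprc, Cd52 and Coro1a, named after their values were seen, had at most 0.0863, 2.01 and 18.3 FPKM in control platelets. In pre-AML 3 they had 1.57, 17.0 and 28.8 FPKM. Cd53 went the other way, with 35.7 to 54.4 FPKM in control and 25.1 to 30.1 FPKM in pre-AML platelets. In RNA of mixed origin, fewer cells of a type and less RNA per cell cannot be told apart.

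Bcl2l1 was by far the most abundant of the 9 genes, and Bid came next. Ordered by mean FPKM over the 6 libraries, the genes ran Bcl2l1 (157 FPKM), Bid (43.1 FPKM), Mcl1 (4.59 FPKM), Bax (3.22 FPKM), Bak1 (1.44 FPKM), Cycs (0.575 FPKM), Bcl2l11 (0.326 FPKM), Bcl2 (0.322 FPKM) and Casp9 (0.212 FPKM). In control platelets Bcl2l1 ranked 275th and Bid 614th of all 14975 genes, while Casp9 stood at the 49.3 percentile. The mean of Bcl2l1 was 3.65 times that of Bid, and that of Bid 9.40 times that of Mcl1, and in both steps the lowest library of the higher gene lay above the highest library of the lower gene. Further down, the ranges of neighbors overlapped. Bax was above Bak1, Bak1 above Cycs and Bcl2 above Casp9 in 6 of 6 libraries, and Mcl1 was above Bax in 5 of 6. Cycs was above Bcl2l11, and Bcl2l11 above Bcl2, in 3 of 6 libraries each, so these 3 genes had no stable order.

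**Figure D1:**
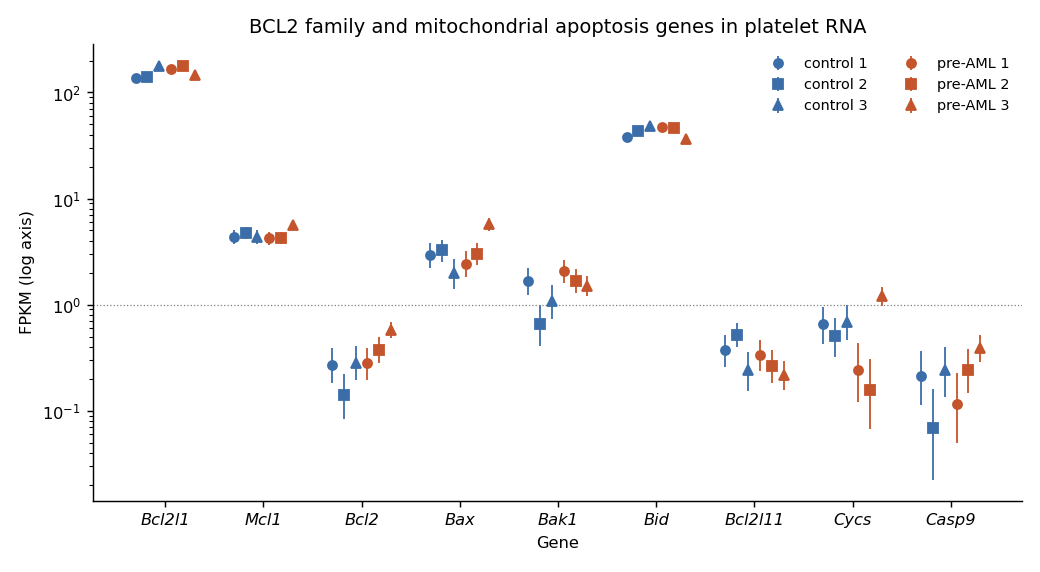
FPKM (log axis) of the 9 genes in each library, with control libraries in blue and pre-AML libraries in orange. Bars are exact 95% Poisson intervals of the recovered reads (counting error only), the dotted line marks the filter of 1 FPKM, and Bcl2l1 and Bid lie above all other genes in every library.

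Pre-AML and control platelets were then compared with limma-trend on log2(FPKM + 1), which compresses fold changes at low FPKM. Among the 5 members tested, 0 had an adjusted p under 0.05, whereas 1 of all 4412 genes did (0.0227%). At an unadjusted p under 0.05, 0 of 5 members passed, beside 9.09% of all tested genes. The groups overlapped in 5 of 5 tested members, while 18.9% of tested genes had groups that did not overlap (6.14% with pre-AML higher and 12.8% with pre-AML lower). They also overlapped in the 4 members below the filter, for which that share was not counted. The log2 fold change was above 0 in 5 of 5 tested members, with a median of 0.12, and in 41.5% of all tested genes, with a median of -0.06. Scaling libraries to the same sum of FPKM changed the split of all genes at an unadjusted p under 0.05 from 113 higher and 288 lower to 275 higher and 194 lower. For the 4 members below the filter, limma-voom on recovered reads (genes with at least 10 reads on average, an analysis chosen after seeing the data) gave tests of all 9 members, of which 0 passed at an adjusted p under 0.05 and 0 at an unadjusted p under 0.05. By limma-voom, 0.0% of 8795 genes passed at an adjusted p under 0.05 and 6.48% at an unadjusted p under 0.05. The number of members past the adjusted threshold stayed at 0 in each of 19 alternative settings.

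Among the pro-survival genes, Bcl2l1 (Entrez gene 12048, chr2:152780668-152831728 on the minus strand of GRCm38) differed little. It had 136, 139 and 178 FPKM in control 1 to control 3 and 165, 179 and 146 FPKM in pre-AML 1 to pre-AML 3. Control 3 lay within the range of the pre-AML libraries, and the highest library exceeded the lowest by 1.32-fold. The means were 151 ± 23.5 FPKM in the controls (SD, n = 3) and 164 ± 16.5 FPKM in the pre-AML libraries (SD, n = 3), a log2 fold change of 0.12 (standard error 0.16, limma-trend adjusted p = 0.759). The 95% confidence interval of the fold change ran from 0.848 to 1.39. Since 7305 to 15662 reads fell on Bcl2l1 per library, counting error was small beside this spread. With libraries scaled to the same sum of FPKM, the log2 fold change of Bcl2l1 was 0.29 (limma-trend adjusted p = 0.476).

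Bcl2l1 made up nearly all of the pro-survival transcripts. Its share of the summed FPKM of the 7 listed pro-survival genes was 96.6%, 96.5% and 97.4% in control 1 to control 3 and 97.3%, 97.4% and 93.4% in pre-AML 1 to pre-AML 3. The lowest share was thus that of pre-AML 3, where Bcl2a1b and Bcl2a1d, near-identical copies of a pro-survival gene of leukocytes whose reads can be split between them, had 2.66 and 0.944 FPKM. Bcl2a1b was at 0 in the other 5 libraries, and Bcl2a1d was at 0 in 4 of them.

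Mcl1, whose product is short-lived and is needed together with BCL-XL in megakaryocytes, varied less than any other member among the controls. It had 4.34, 4.74 and 4.35 FPKM in control 1 to control 3 and 4.24, 4.25 and 5.61 FPKM in pre-AML 1 to pre-AML 3. Pre-AML 1 and pre-AML 2 were below all controls, and pre-AML 3 was above them. The log2 fold change was 0.05 (SE 0.14, limma-trend adjusted p = 0.902), and without pre-AML 3 it was -0.06. Relative to Bcl2l1 in the same library, Mcl1 was at 0.0320, 0.0340 and 0.0244 in control and 0.0257, 0.0237 and 0.0383 in pre-AML libraries.

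Bcl2, which keeps lymphocytes alive, was low and highest in pre-AML 3. The values were 0.270, 0.140 and 0.284 FPKM in control 1 to control 3 (29, 18 and 31 reads) and 0.279, 0.376 and 0.580 FPKM in pre-AML 1 to pre-AML 3 (34, 52 and 124 reads). Pre-AML 1 lay just below control 3, so the groups overlapped by that library. By limma-voom the log2 fold change was 0.94 (95% confidence interval -0.09 to 1.98, adjusted p = 0.668), and without pre-AML 3 it was 0.59 (adjusted p = 0.740). The B cell list and the monocyte and macrophage list without Lyz2 and Fcer1g also had their highest sums in pre-AML 3, and their part in the level of Bcl2 was not tested.

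The 2 pore-forming members each had a higher mean in pre-AML than in control platelets, but neither passed the main test. Bak1 had 1.66, 0.650 and 1.08 FPKM in control 1 to control 3 (47, 22 and 31 reads) and 2.06, 1.68 and 1.51 FPKM in pre-AML 1 to pre-AML 3 (66, 61 and 85 reads). Control 1 lay between pre-AML 2 and pre-AML 3, and the other 2 controls were below all pre-AML libraries. The log2 fold change was 0.39 (SE 0.22, 95% confidence interval -0.10 to 0.88, limma-trend adjusted p = 0.529). It was 0.45 without pre-AML 3, and across the 6 fits that each left out a library it lay between 0.22 (without control 2) and 0.57 (without control 1). The unadjusted limma-trend p for Bak1, 0.105 with all libraries, was 0.0492 with libraries scaled to the same sum of FPKM, 0.0301 with array weights and 0.0318 without control 1. In those 3 settings 10.6%, 17.1% and 4.56% of all tested genes had an unadjusted p under 0.05, and the adjusted p of Bak1 was between 0.249 and 0.777 over its alternatives. On recovered reads, limma-voom gave 0.72 (95% confidence interval -0.17 to 1.60, adjusted p = 0.668), so the interval still held a 3.04-fold rise and a fall to 0.890-fold. Exons of Bak1 share 614 bases, or 25.5% of its length, with Ggnbp1 on the other strand, which had a mean of 0.005 FPKM. The effect of this overlap on the reads of Bak1 was not tested.

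Bax was high in a single library. The values were 2.92, 3.25 and 1.97 FPKM in control 1 to control 3 and 2.43, 3.03 and 5.71 FPKM in pre-AML 1 to pre-AML 3, on 37 to 210 reads. Pre-AML 1 and pre-AML 2 lay inside the range of the controls, and pre-AML 3 was 1.76 times the next library. The log2 fold change of 0.30 (SE 0.26, limma-trend adjusted p = 0.637) was 0.02 without pre-AML 3. The part of the B cell and monocyte markers that were highest in pre-AML 3 was not tested. Exons of Bax share 192 bases (12.2% of its length) with Gm45808 on the same strand, which is not among the genes listed. The effect of this overlap on the reads of Bax was not tested.

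**Figure D2:**
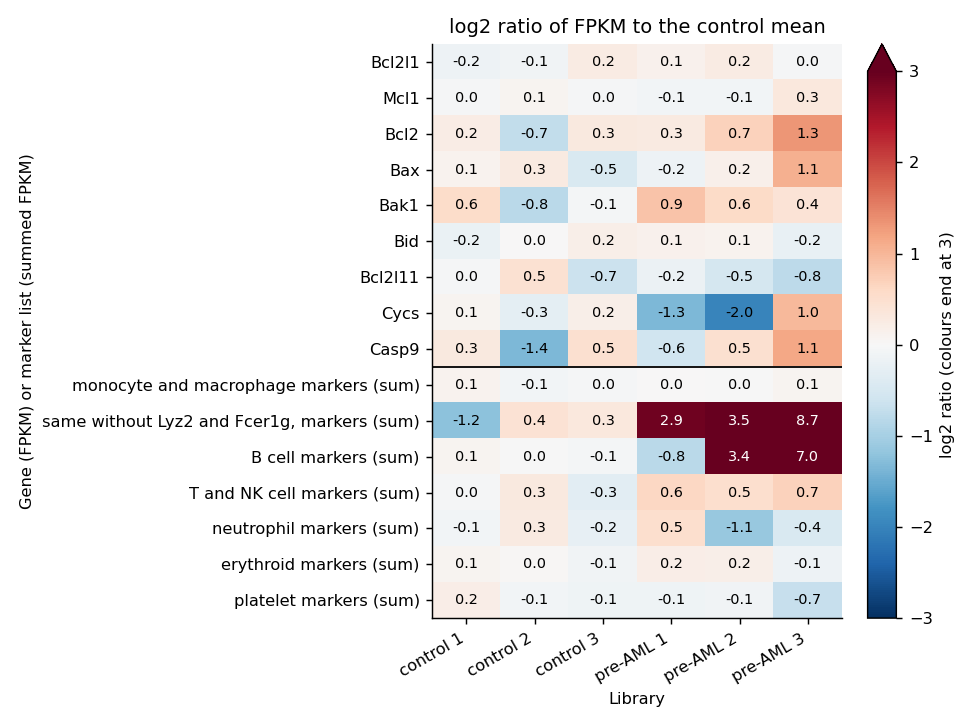
log2 ratio of each library to the mean of the 3 controls for the 9 genes (FPKM) and for marker lists (summed FPKM), with colors that end at 3. In pre-AML 3, Bcl2, Bax, Cycs and Casp9 stand at 1.33, 1.07, 0.98 and 1.15, and the B cell markers at 6.97.

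The ratio of pro-survival to pore-forming transcripts within a library does not depend on how libraries were scaled. The ratio of Bcl2l1 to Bak1 was 81.6, 215 and 165 in control 1 to control 3 and 80.1, 107 and 96.7 in pre-AML 1 to pre-AML 3. Control 1 was next to the lowest value of all, so the lower mean of the pre-AML libraries (94.5 ± 13.5, SD, n = 3, against 154 ± 67.2, SD, n = 3) was within the spread of the controls. The ratio of Bcl2l1 to Bax was 46.5, 42.9 and 90.3 in control and 67.8, 59.2 and 25.6 in pre-AML libraries. It was lowest in pre-AML 3, while pre-AML 1 and pre-AML 2 lay within the controls. The ratio of Bak1 to Bax ranged from 0.200 in control 2 to 0.847 in pre-AML 1, so Bax transcripts outnumbered those of Bak1 per length in every library. No test was run on these ratios.

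**Figure D3:**
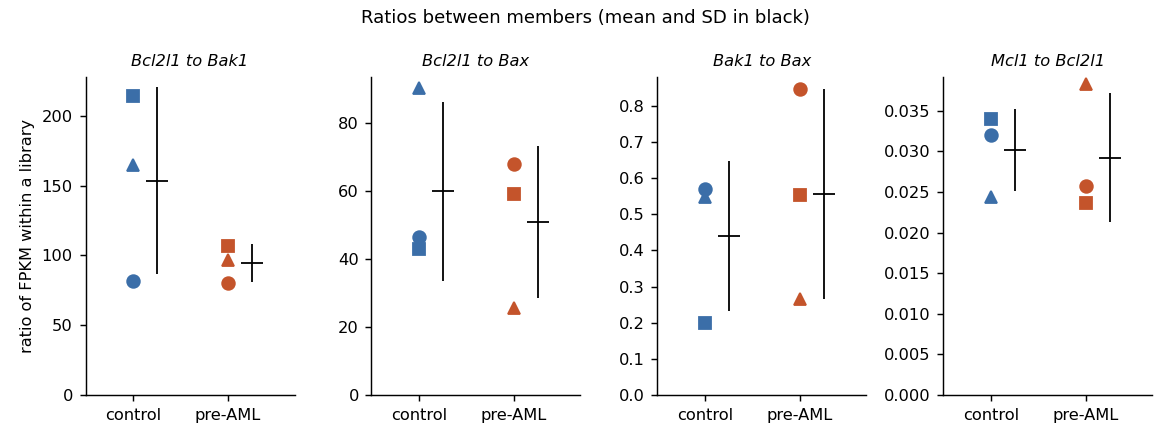
Ratios of FPKM between members within each library (circles, squares and triangles for replicates 1, 2 and 3), with the mean and SD of each group in black. The groups overlap in each of the 4 ratios, and the ratio of Bcl2l1 to Bak1 runs from 81.6 to 215 among the controls.

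Among the BH3-only genes, Bid was abundant and level between groups. BID links death receptors to mitochondria once caspase 8 has cut it. Bid had 37.7, 43.1 and 48.4 FPKM in control 1 to control 3 and 46.8, 46.1 and 36.7 FPKM in pre-AML 1 to pre-AML 3. The lowest and highest values belonged to pre-AML 3 and control 3, and both groups had nearly the same mean, 43.1 ± 5.35 FPKM in the controls (SD, n = 3) and 43.2 ± 5.65 FPKM in the pre-AML libraries (SD, n = 3). The log2 fold change was 0.0026 (SE 0.16, limma-trend adjusted p = 0.997), with a 95% confidence interval of 0.780-fold to 1.29-fold, and its sign turned in 4 of 19 alternative settings. It depended on scaling, and was 0.17 (limma-trend adjusted p = 0.584) with libraries scaled to the same sum of FPKM. Bid shares 628 exon bases (17.7% of its length) with Bcl2l13 on the other strand, which had a mean of 0.612 FPKM. Reads of the shared bases of such pairs cannot be told apart without strand. Bcl2 (6.1% of its length) and Casp9 (1.8%) also share exon bases with genes on the other strand.

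Bcl2l11, the gene of BIM, an activator of BAX and BAK that also restrains lymphocyte survival, had low values. They were 0.371, 0.522 and 0.241 FPKM in control 1 to control 3 (35, 59 and 23 reads) and 0.337, 0.264 and 0.219 FPKM in pre-AML 1 to pre-AML 3 (36, 32 and 41 reads). All pre-AML libraries were below 2 of the controls, and control 3 lay among them. By limma-voom the log2 fold change was -0.50 (95% confidence interval -1.43 to 0.42, adjusted p = 0.676), and without pre-AML 3 it was -0.31. Unlike Bcl2, Bax, Cycs and Casp9, it was lowest in pre-AML 3.

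Cycs and Casp9 were scarce, and Cycs split the pre-AML libraries. Cycs encodes cytochrome c, an electron carrier of the respiratory chain until its release. It had 0.651, 0.501 and 0.691 FPKM in control 1 to control 3 (26, 24 and 28 reads) and 0.243, 0.156 and 1.21 FPKM in pre-AML 1 to pre-AML 3 (11, 8 and 96 reads). Pre-AML 1 and pre-AML 2 were below all controls, and pre-AML 3 was above all of them at 1.75 times the next library. With all libraries the log2 fold change was -0.41 by limma-voom (95% confidence interval -1.99 to 1.18, adjusted p = 0.821). Without pre-AML 3, an analysis added after seeing the values, it was -1.60 (95% confidence interval -2.96 to -0.25, unadjusted p = 0.0239, adjusted p = 0.633 from limma-voom), beside 7.81% of genes with an unadjusted p under 0.05 in that fit, and 3.55% that were lower. Among genes generally, both of these libraries lay under every control in 12.2% of the 8795 genes with at least 10 reads on average. The counting interval of pre-AML 2 (0.0673 to 0.307 FPKM) lay below those of all 3 controls, whose lower limits were 0.425, 0.321 and 0.459 FPKM. That of pre-AML 1 (0.121 to 0.435 FPKM) lay below control 3 only. Cycs has processed pseudogenes in the mouse genome, so its reads may be split among copies.

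Casp9, the initiator caspase of the apoptosome, had 0.213, 0.0684 and 0.243 FPKM in control 1 to control 3 (13, 5 and 15 reads) and 0.116, 0.242 and 0.388 FPKM in pre-AML 1 to pre-AML 3 (8, 19 and 47 reads). Only pre-AML 3 was above all controls. The log2 fold change by limma-voom was 0.78, with a 95% confidence interval of -0.98 to 2.53 (adjusted p = 0.712) and 0.23 without pre-AML 3, so the interval held both a fall to 0.507-fold and a 5.78-fold rise.

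Pre-AML 3 was the highest of the 6 libraries in 5 of the 9 members (Mcl1, Bcl2, Bax, Cycs and Casp9), as it was in 33.9% of genes with at least 10 reads on average and in 18.7% of the 4412 genes tested. It was the lowest in 2 members, Bid and Bcl2l11, and in 43.8% of the genes tested. Bcl2l11 is below the filter and so not among those genes, and the share of lowest values below the filter was not counted.

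**Figure D4:**
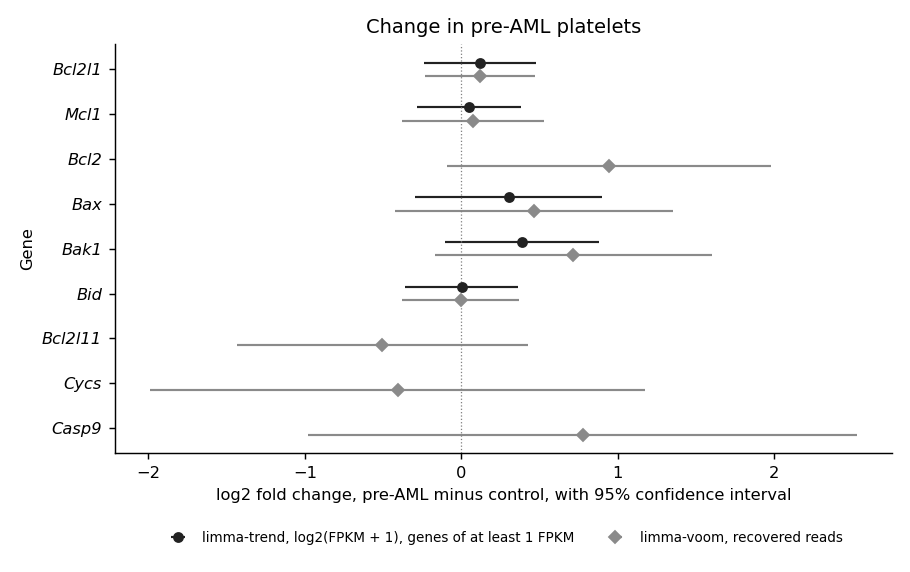
log2 fold change (pre-AML minus control) with its 95% confidence interval, for the 5 members tested by limma-trend (black circles) and for all 9 by limma-voom on recovered reads (grey diamonds). Each interval includes 0, with the narrowest around Bcl2l1, Bid and Mcl1 and the widest for Casp9 (-0.98 to 2.53).

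The other genes of the pathway were read from a list of 64 genes in 8 groups, the members included, of which 62 were listed and 27 tested. By limma-trend, 0 of 27 had an adjusted p under 0.05. At an unadjusted p under 0.05, 0 were higher (2.56% of all tested genes) and 2 were lower (6.53%). The groups did not overlap in 4 of 27, each with lower pre-AML values (12.8% of all tested genes): Vdac2, Ghitm, Usp9x and Ano6, of which the last 3 are named for this count after their values were seen. The median log2 fold change was -0.06 over the 27 genes and -0.06 over all 4412.

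Several transcripts of this list were more abundant than those of the members. Bcap31, which encodes an endoplasmic reticulum protein cut by caspase 8, had 1164 ± 87.0 FPKM in the controls (SD, n = 3) and 974 ± 165 FPKM in the pre-AML libraries (SD, n = 3). Gsn, for gelsolin, an actin-severing caspase substrate, had 428 ± 59.1 and 439 ± 23.8 FPKM (SD, n = 3 each). Bnip3l, whose product NIX drives mitophagy in reticulocytes, had 205 ± 12.8 and 199 ± 32.2 FPKM (SD, n = 3 each), and is listed with the BH3-only group. Tmbim6, the gene of BAX inhibitor 1, had 187 ± 11.5 and 179 ± 15.7 FPKM (SD, n = 3 each). Their log2 fold changes were -0.27, 0.05, -0.06 and -0.06, and the 95% confidence interval of each included 0.

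Casp6, an executioner caspase, lay between Bid and Mcl1 in level. It had 18.1 ± 0.288 FPKM in the controls (SD, n = 3) and 17.0 ± 3.59 FPKM in the pre-AML libraries (SD, n = 3). Its log2 fold change was -0.11 (limma-trend adjusted p = 0.793), with the lowest value in pre-AML 3. Among the inhibitors, Birc2 (an E3 ligase of death receptor signaling) had 71.2 ± 14.8 and 61.9 ± 11.1 FPKM, and Xiap, which blocks caspases directly, 6.66 ± 0.819 and 5.51 ± 1.22 FPKM (SD, n = 3 each). Of this group, 2 of 9 genes were tested and both had log2 fold changes below 0, at -0.19 and -0.25, with limma-trend adjusted p-values of 0.694 and 0.584.

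In the death receptor branch, Cflar, the gene of the caspase 8 inhibitor FLIP, had 42.0 ± 2.87 FPKM in the controls (SD, n = 3) and 45.2 ± 7.81 FPKM in the pre-AML libraries (SD, n = 3). Casp8 itself was below the filter, at 0.265, 0.393 and 0.290 FPKM in control 1 to control 3 and 0.104, 0.435 and 2.15 FPKM in pre-AML 1 to pre-AML 3. Casp8 was chosen after its values were seen, as the enzyme that cuts BID, and it too was highest in pre-AML 3. The receptor gene Fas had 3.32 ± 1.37 and 3.65 ± 0.453 FPKM (SD, n = 3 each), with a log2 fold change of 0.16 (limma-trend adjusted p = 0.804).

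The 7 tested genes of the group of membrane modulators all had log2 fold changes below 0, as did 58.5% of all tested genes, and held both genes with an unadjusted p under 0.05. Their median was -0.27. With libraries scaled to the same sum of FPKM, 6 of 7 were below 0 (median -0.14), as were 6 of 7 after removal of length and GC trends (median -0.12) and 6 of 7 without pre-AML 3 (median -0.14). Vdac2, a channel of the outer membrane known to bind BAK, had 4.06, 4.69 and 3.30 FPKM in control 1 to control 3 and 3.25, 2.54 and 2.81 FPKM in pre-AML 1 to pre-AML 3. Its groups did not overlap, though control 3 (187 reads) and pre-AML 1 (206 reads) were close, and its log2 fold change was -0.37 (SE 0.16, limma-trend adjusted p = 0.522). Tmem14a, a small membrane protein, had 61.2, 58.7 and 51.2 FPKM in control and 51.3, 43.8 and 32.9 FPKM in pre-AML libraries, a log2 fold change of -0.43 (SE 0.18, limma-trend adjusted p = 0.522). Without pre-AML 3 these changes were -0.36 and -0.26, and after removal of length and GC trends they were -0.24 and -0.25. Of the genes for phosphatidylserine exposure, Tmem30a, the partner subunit of lipid flippases, had 4.93 ± 1.04 and 3.73 ± 0.805 FPKM (SD, n = 3 each; log2 fold change -0.33, limma-trend adjusted p = 0.536). The scramblase gene Xkr8, named after its values were seen, had at most 0.159 FPKM, again in pre-AML 3.

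**Figure D5:**
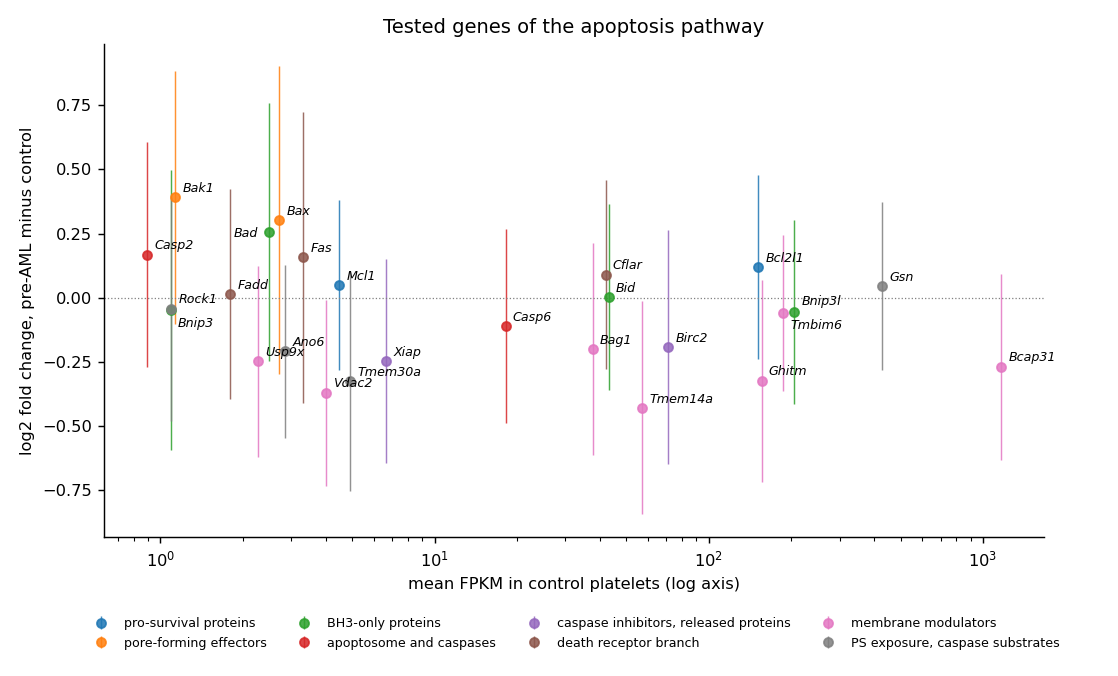
log2 fold change (pre-AML minus control, bars for 95% confidence intervals from limma-trend) against mean FPKM in control platelets (log axis) for 26 of the 27 tested genes of the apoptosis list, colored by group. The intervals of Vdac2 and Tmem14a end just below 0, and those of the other 24 genes plotted include it.

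Of the 35 listed genes of the pathway below the filter, 25 had their highest value in pre-AML 3, as had 43.2% of all 10563 genes below the filter. They included Tnfrsf1a at 2.98 FPKM and Tradd at 2.02 FPKM, which were named after their values were seen. In the other 5 libraries Tnfrsf1a was at most 0.901 FPKM and Tradd at most 0.457 FPKM. The B cell list and the monocyte and macrophage list without Lyz2 and Fcer1g had their highest sums in the same library, and their part in these values was not tested.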

How the data were processed

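Platelets were purified from platelet-rich plasma by depletion of cells positive for CD45 or Ter119, and cDNA was amplified with SMART-Seq2 and made into Nextera XT libraries, which do not mark strand. The authors mapped reads to mm10 with STAR (2.5.2b) and used DESeq2 (1.12.4). The counting program is not given in the sources used here. The authors deposited FPKM values for 14975 genes, with 1 column per library. The columns were matched to samples by title. With union exon lengths of GENCODE M21 (14910 genes matched, 732 of them by symbol), 81.4% to 82.2% of values above 0 were whole reads within 0.02, as were all values of the 9 members. These recovered reads are estimates. The scaled library size behind the FPKM was 1.31 times the recovered reads in pre-AML 3 and 0.983 to 1.01 times in the others.

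The main test was limma-trend (limma 3.58.1, R 4.3.3) on log2(FPKM + 1) for the 4412 genes that averaged 1 FPKM or more, without covariates, with Benjamini-Hochberg adjustment over all tested genes and a threshold of 0.05. It was tested on simulated data with larger changes than those of the members and no library set apart like pre-AML 3. That check does not measure its power for changes as small as those of the members. Exact Poisson intervals cover counting error only. The text names the 9 members, the 2 most abundant genes of each pathway group and those with an unadjusted p under 0.05, and the 2 highest genes of each marker list. An item that the rule names is not reported here. Members and lists were chosen with earlier results of these data known. Correlations of same-numbered libraries were -0.04, -0.12 and -0.17, after the mean of its group was subtracted from each gene. Since pre-AML 3 stood apart within its group, these values cannot decide whether replicate numbers pair the samples. Alternatives were other pseudocounts, filters and scalings, limma-voom, array weights, a replicate block and leaving out each library. Python 3.11.15, Biopython 1.88 and matplotlib 3.10.9 were used.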

Additional observations from a re-analysis of the deposited data

How the results depend on the processing

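The count of members past an adjusted p of 0.05 was 0 in the main analysis and in all 19 alternatives, and so was that of the 62 listed pathway genes. The count over all genes was 1. It was 0 with no filter on low values, with a filter of 5 FPKM, with libraries scaled to the same sum of FPKM and by limma-voom (with either filter, and without pre-AML 3), 2 with array weights, and 0 to 2 with 1 library left out. With the replicate number as a block it stayed at 1 by limma-trend, and by limma-voom it was 63. Whether the replicate numbers pair the samples is not known. Scaling libraries to the same sum of FPKM moved the median log2 fold change of all genes from -0.06 to 0.08.

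Pathway genes at an unadjusted p under 0.05 numbered 0 higher and 2 lower. Leaving out 1 library gave 0 to 1 higher and 0 to 3 lower. Higher genes numbered 3 with no filter (also without pre-AML 3) and by limma-voom without pre-AML 3, 2 with equal sums of FPKM, 1 with length and GC trends removed or array weights, and 2 by limma-voom with the replicate block. Lower genes numbered 1 with a filter of 5 FPKM, equal sums of FPKM, quantile normalization, length and GC trends removed, or the replicate block in either test.

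Bcl2l1, Bak1 and Bax had a log2 fold change above 0 in every alternative that tested them (0.05 to 0.29, 0.22 to 0.84 and 0.02 to 0.50). That of Mcl1 was -0.057 with array weights, -0.061 without pre-AML 3 (with or without the filter) and -0.078 by limma-voom without pre-AML 3. That of Bid was -0.0020 by limma-voom, -0.087 without control 1, -0.058 without pre-AML 1 and -0.048 without pre-AML 2. It was at most 0.11 with 1 library left out, and highest at 0.17 with libraries scaled to the same sum of FPKM. The cause was not tested. With 1 library left out, the log2 differences of the ratios ran from -1.002 to -0.30 (Bcl2l1 to Bak1), -0.54 to 0.17 (Bcl2l1 to Bax), -0.16 to 0.79 (Bak1 to Bax) and -0.27 to 0.07 (Mcl1 to Bcl2l1). Bcl2, Bcl2l11, Cycs and Casp9 rest on 5 to 124 reads per library, and counting error was not separated from the spread between libraries.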
